A study of Mus musculus with 8 samples.

Results

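Janus kinases (JAKs) and signal transducers and activators of transcription (STATs) were followed at the RNA level in splenic CD4 T cells of mice, sorted into 8 libraries. The 9 genes were chosen by symbol, 3 kinases (Jak1, Jak2 and Jak3) and 6 STAT factors (Stat2, Stat3, Stat4, Stat5a, Stat5b and Stat6), out of 54837 genes in the deposited count table. All 9 were found and all 9 passed the filter on low counts. All mice carried Foxp3-eGFP-Cre-ERT2, in which the Foxp3 gene drives green fluorescent protein and a Cre recombinase that tamoxifen activates, and all received tamoxifen on 5 successive days. GFPhi (3 libraries) holds TIM-3+ FLAG+ GFP+ FoxP3+ CD4 cells of mice that also carry FSF-TIM-3. GFPLow (3 libraries) holds TIM-3+ FLAG+ GFP- FoxP3- CD4 cells of the same genotype. WT (2 libraries) holds TIM-3- FLAG- GFP+ FoxP3+ CD4 cells of mice without FSF-TIM-3. The labels give no age. GFPhi and WT differ in genotype and in the gate on TIM-3 and FLAG, so these cannot be told apart, and GFPLow and WT differ in FoxP3 status as well.

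JAKs are tyrosine kinases bound to the inner tails of cytokine receptors. When a cytokine brings receptor chains together, the kinases phosphorylate them and the STAT proteins that dock there, and paired STATs enter the nucleus and bind DNA. In T cells Jak1 and Jak3 serve receptors that use the common gamma chain, such as those for IL-2 and IL-7, which signal mainly through the STAT5 proteins, and in regulatory T (Treg) cells IL-2 acting through STAT5 maintains Foxp3. STAT3 is activated downstream of IL-6, STAT4 of IL-12, STAT6 of IL-4, and STAT2 of type I interferon. Much of this control lies in protein phosphorylation, which RNA counts do not measure.

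Paired STAT5 binds the palindrome TTCNNNGAA, where N is any base, which reads the same on both strands. Windows of 250 bases before to 50 bases after gene starts (RefSeq, GRCm38.p6) hold it in 8.3% of 32851 cases. None of the 12 windows of the 9 JAK and STAT genes holds these letters. Among the SOCS family and the STAT5 target list described further on, the windows of Cish and Lta hold the palindrome 2 times each, the most found, and those of Foxp3, Gzmb and Socs3 1 time each. The table has no window for Ccnd2, Osm, Socs2, Socs5, Socs6 and Socs7. The stretches with the palindromes are shown, 5′ to 3′ on the strand of the gene and with the palindromes in capitals, because both genes passed the test in GFPhi against GFPLow. Cish lies on the forward strand (chr9:107296619-107296683) and Lta on the reverse strand (chr17:35205352-35205521).
Cish: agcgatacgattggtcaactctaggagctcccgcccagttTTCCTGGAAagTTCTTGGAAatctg
Lta: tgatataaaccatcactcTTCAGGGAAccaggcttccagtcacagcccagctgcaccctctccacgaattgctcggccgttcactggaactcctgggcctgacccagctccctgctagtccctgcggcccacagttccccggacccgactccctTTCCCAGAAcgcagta
A match describes the letters and is not a measured binding site.

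The libraries held 44446215 to 55388756 counts each. Havcr2, which encodes TIM-3, stood at 1525, 1077 and 1791 CPM (counts scaled to a common library total) in GFPhi, at 260.1, 127.1 and 538.2 CPM in GFPLow, with 0.876 and 0.172 CPM in WT. Foxp3, the lineage factor of Treg cells, stood at 60.2, 68.1 and 81.0 CPM in GFPhi, at 2.45, 1.97 and 4.82 CPM in GFPLow, with 41.7 and 63.2 CPM in WT. Both follow the gates. WT library 1 stood apart, with a scaling (TMM) factor of 0.694 against 1.041 to 1.07 in the other 7 libraries, 6.54% of counts mitochondrial against 2.35% to 2.78%, and 15.2% of counts in ribosomal protein genes against 6.12% to 6.97%. WT library 2 held Xist (242 CPM) together with the Y-linked gene Ddx3y (6.16 CPM). GFPhi library 3 and GFPLow library 3 held Xist without Ddx3y, and the other 5 libraries held Ddx3y with Xist at 0.264 CPM or less. Each comparison is therefore given with and without WT library 1.

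Jak1 was by far the most abundant of the 3 kinases. Jak1 (ENSMUSG00000028530, GRCm38 chromosome 4, 101152367 to 101265282, reverse strand), which serves most cytokine receptors of T cells, was at 730.8, 735.3 and 769.7 CPM in GFPhi, at 918.5, 948.1 and 899.9 CPM in GFPLow, with 537.6 and 715.6 CPM in WT. The 3 GFPhi values lay below the 3 of GFPLow and above both of WT. Jak2 (ENSMUSG00000024789, chromosome 19, 29251828 to 29313080, forward strand), the kinase of the interferon gamma and IL-12 receptors, was at 60.4, 55.5 and 49.97 CPM in GFPhi, at 55.6, 63.3 and 57.4 CPM in GFPLow, with 70.7 and 64.3 CPM in WT. It was the one member highest in WT library 1. GFPhi and GFPLow overlapped, and both WT libraries lay above all 6. Jak3 (ENSMUSG00000031805, chromosome 8, 71676296 to 71690575, forward strand), the partner of the common gamma chain, was at 100.4, 79.4 and 72.5 CPM in GFPhi, at 78.1, 89.1 and 61.5 CPM in GFPLow, with 3.89 CPM in WT library 1 and 72.9 CPM in WT library 2. Apart from the low value in WT library 1, all libraries lay within one range. Jak3 shares 404 exon bases with Insl3 on the same strand, and Insl3 was at 0.484 to 1.65 CPM in GFPhi and GFPLow and at 0.0973 and 0.293 CPM in WT.

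Stat3 and Stat5a separated GFPhi from GFPLow in opposite directions by level, while Stat2 and Stat6 varied as much within groups as between them. Stat2 (ENSMUSG00000040033, chromosome 10, 128270559 to 128292849, forward strand), part of the type I interferon response, was at 51.9, 66.1 and 81.0 CPM in GFPhi, at 51.5, 69.2 and 74.2 CPM in GFPLow, with 51.2 and 59.8 CPM in WT. Stat3 (ENSMUSG00000004040, chromosome 11, 100885098 to 100939540, reverse strand) was at 254.2, 256.8 and 249.7 CPM in GFPhi, at 308.0, 276.3 and 273.6 CPM in GFPLow, with 42.8 and 214.3 CPM in WT. Every GFPhi library was below every GFPLow library and above both WT libraries. Stat4 (ENSMUSG00000062939, chromosome 1, 51987148 to 52107189, forward strand), a factor of T helper 1 differentiation, was at 120.6, 125.6 and 117.3 CPM in GFPhi, at 133.6, 148.8 and 129.9 CPM in GFPLow, with 110.4 and 136.3 CPM in WT. GFPhi lay below GFPLow without overlap and within the range of WT. The gene Gm28177 shares 1033 exon bases with Stat4 on the same strand and had 0.6 to 6.1 CPM, so few reads were assigned to it. Of the runs of 50 bases in the longest coding transcript of Stat4, 28.6% occur in Gm28177. Reads from them may be dropped in counting, so the Stat4 level may be too low beside other genes, as may its ratio to Stat6 below.

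Stat5a (ENSMUSG00000004043, chromosome 11, 100859351 to 100885169, forward strand) was at 73.3, 57.8 and 52.7 CPM in GFPhi, at 49.5, 48.0 and 30.4 CPM in GFPLow, with 26.5 and 62.2 CPM in WT. It was the one member with every GFPhi library above every GFPLow library. Stat5b (ENSMUSG00000020919, chromosome 11, 100780731 to 100850724, reverse strand), the close paralog of Stat5a, was at 151.4, 135.6 and 133.3 CPM in GFPhi, at 142.5, 132.9 and 118.8 CPM in GFPLow, with 43.5 and 119.9 CPM in WT. GFPhi and GFPLow overlapped, and every GFPhi library lay above both WT libraries. Stat6 (ENSMUSG00000002147, chromosome 10, 127642986 to 127660957, forward strand), which acts downstream of IL-4, was at 191.7, 151.9 and 190.3 CPM in GFPhi, at 230.3, 194.4 and 173.8 CPM in GFPLow, with 56.8 and 178.8 CPM in WT. Its groups overlapped except for WT library 1. Stat3, Stat5a and Stat5b are neighbours on chromosome 11. Stat3 and Stat5a share 72 exon bases on opposite strands, and of the runs of 50 bases in their longest coding transcripts 16.4% of those in Stat5a and 11.8% of those in Stat5b occur in another member, so reads of the STAT5 genes may be split or dropped in counting.

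**Figure D1:**
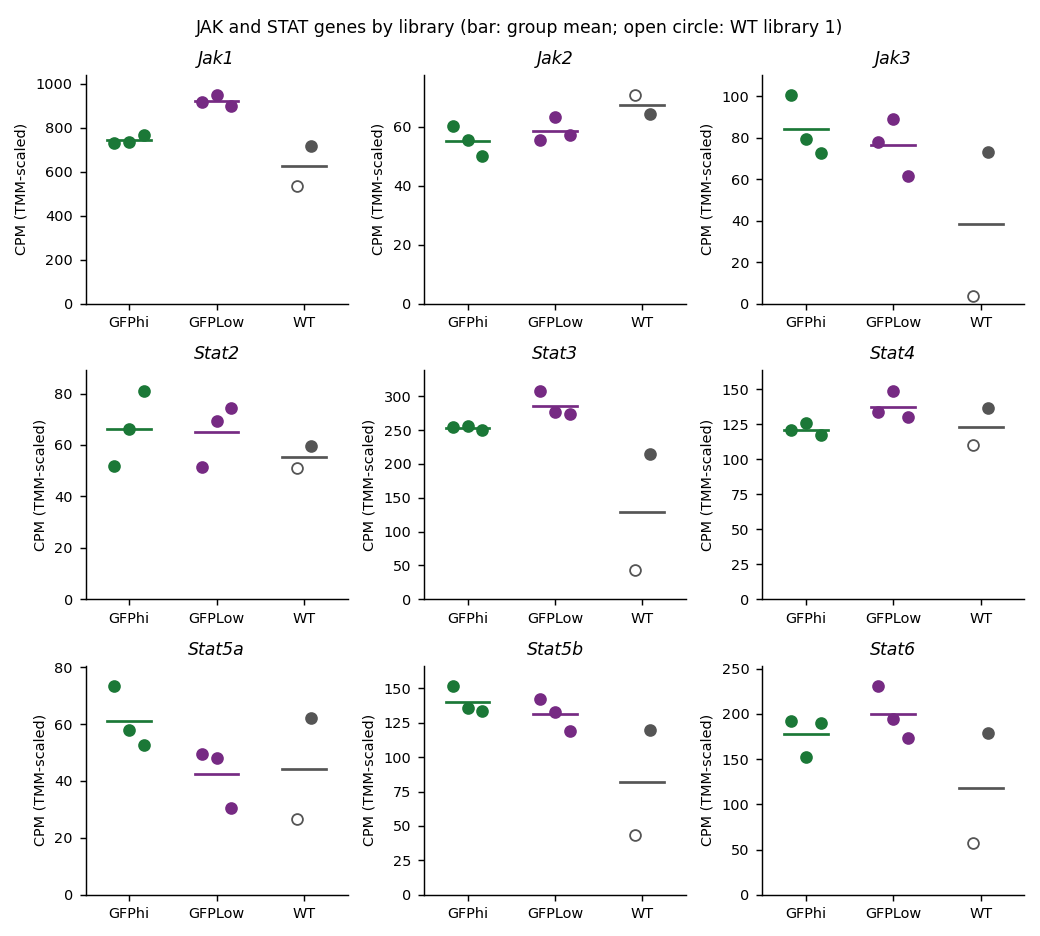
TMM-scaled CPM (vertical axes, from 0) of the 9 JAK and STAT genes in each library of GFPhi, GFPLow and WT, with points for libraries, bars for group means and an open circle for WT library 1. Jak1 lies between 730.8 and 769.7 CPM in GFPhi and between 899.9 and 948.1 CPM in GFPLow, and WT library 1 is the lowest library for every gene but Jak2.

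In GFPhi against GFPLow, which compares GFP+ FoxP3+ with GFP- FoxP3- cells of the same genotype, no JAK or STAT gene passed the test on all libraries. By edgeR's quasi-likelihood test on all 8 libraries, with Benjamini-Hochberg adjustment over 18851 genes and a threshold of 0.05, 0 of 9 were called, and 0 had an unadjusted p under 0.05, while 2.26% of all genes were called. DESeq2 called 0 (7.29% of all genes) and limma voom called 1 (Jak1). Log2 fold changes ran from -0.31 to 0.52, with a median size of 0.165 for the 9 genes and 0.314 for all genes tested. The libraries did not overlap for 4 of the 9 genes (Jak1, Stat3 and Stat4 below, Stat5a above), against 30.0% of all genes (14.0% below and 16.0% above).

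Jak1 averaged 745.3 ± 21.3 CPM in GFPhi and 922.2 ± 24.3 CPM in GFPLow (SD, n = 3 each), a log2 fold change of -0.31 ± 0.18 (SE, 95% interval -0.72 to 0.11, edgeR adjusted p = 0.653). Stat5a averaged 61.3 ± 10.7 CPM in GFPhi and 42.6 ± 10.6 CPM in GFPLow, a log2 fold change of 0.52 ± 0.34 (95% interval -0.25 to 1.30, edgeR adjusted p = 0.725). Stat4 gave -0.18 ± 0.16 (edgeR adjusted p = 0.890). Stat3 gave -0.17 ± 0.47, Stat6 -0.17 ± 0.37, Jak2 -0.09 ± 0.16, Jak3 0.14 ± 0.77, Stat5b 0.09 ± 0.33 and Stat2 0.03 ± 0.22, all 6 with an edgeR adjusted p of 1.0. The intervals were wide where WT library 1 was low, from -1.63 to 1.91 for Jak3 and from -1.26 to 0.91 for Stat3. The fit takes 1 estimate of spread for each gene over the 3 groups.

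Without WT library 1 the median SE of the 9 genes was 0.0971, against 0.327 with it. Jak1 was then called lower in GFPhi (log2 fold change -0.31 ± 0.04, 95% interval -0.42 to -0.21, edgeR adjusted p = 0.00425), in a fit that called 9.66% of all genes. It was also called without WT library 2 (edgeR adjusted p = 0.00537, 9.64% of all genes called), with only the 6 libraries of GFPhi and GFPLow (edgeR adjusted p = 0.00429, 12.3% of all genes called) and by voom on 8 libraries (limma adjusted p = 0.00959, 12.0% of all genes called). With the replicate number as a block in the fit of those 6 libraries, Jak1 (edgeR adjusted p = 0.0182) and Stat5a (0.54, edgeR adjusted p = 0.0431) were called, with 10.3% of all genes, although the numbers are not known to pair the libraries. Stat3 (-0.18 ± 0.06), Stat4 (-0.19 ± 0.07) and Stat5a (0.52 ± 0.20) were not called without WT library 1, with edgeR adjusted p of 0.122, 0.164 and 0.174. Their 95% intervals were -0.32 to -0.04, -0.35 to -0.02 and 0.05 to 0.98. GFPLow library 3 had the lowest Stat5a level of the 6 libraries and also the highest summed level of 6 myeloid markers, 230.8 CPM against 0.339 to 22.6 CPM in GFPhi and 5.06 and 20.8 CPM in the other 2 GFPLow libraries. Without that library the Stat5a log2 fold change was 0.33. The part of the myeloid markers in the Stat5a value was not tested.

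**Figure D2:**
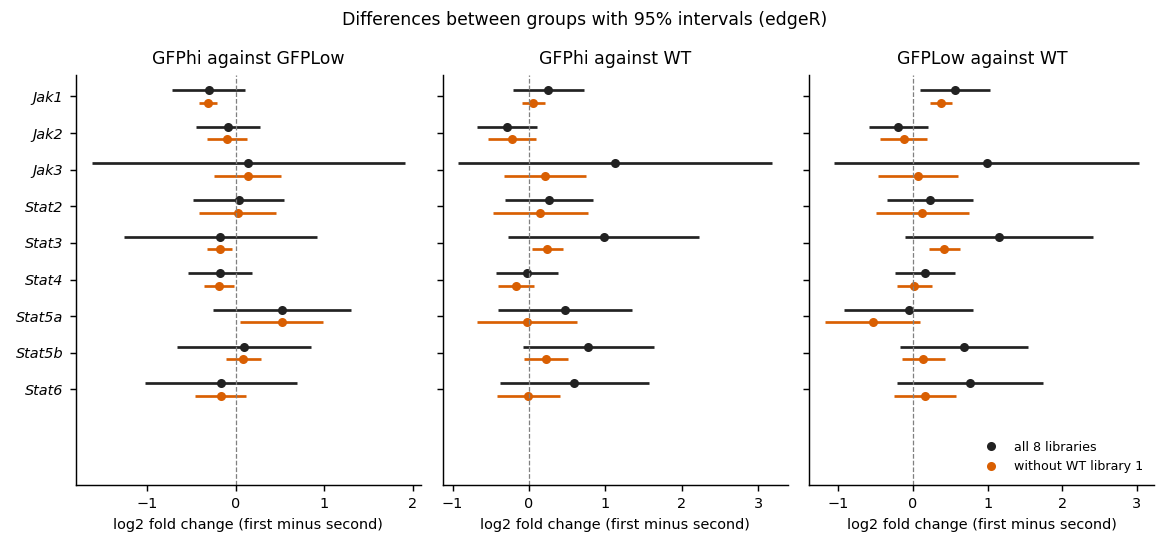
Log2 fold changes (horizontal axes, first group minus second) of the 9 genes in the 3 comparisons, with 95% intervals from edgeR, fitted to all 8 libraries (black) and without WT library 1 (orange). For Jak1 in GFPhi against GFPLow the interval runs from -0.72 to 0.11 with all libraries and from -0.42 to -0.21 without WT library 1.

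In GFPhi against WT, the comparison of FoxP3+ cells with and without the TIM-3 transgene that the series title names, no JAK or STAT gene was called. EdgeR called 0 of 9 with 0 at an unadjusted p under 0.05, DESeq2 called 0 (1.7% of all genes) and voom 0. DESeq2 gave no adjusted p for Jak2, Jak3, Stat2 and Stat5a in this comparison, so its 0 covers only the other members. Genes of the lists below may lack an adjusted p from DESeq2 in this comparison as well. Of all 18851 genes tested, edgeR and voom each called 0. Even Havcr2, which the gates separate, was not called (log2 fold change 11.56 ± 1.13, edgeR adjusted p = 0.121). The 0 calls by edgeR and voom in this comparison, here and for the lists below, therefore cannot show that a gene is unchanged. The libraries did not overlap for 4 of 9 genes (Jak1, Stat3 and Stat5b above, Jak2 below), against 28.1% of all genes (15.6% above and 12.6% below). Stat5b averaged 140.1 ± 9.86 CPM in GFPhi (SD, n = 3) and was at 43.5 and 119.9 CPM in WT, which gave a log2 fold change of 0.78 ± 0.37 (edgeR adjusted p = 0.378, 95% interval -0.08 to 1.64). Jak3 gave 1.13 ± 0.89 and Stat3 0.98 ± 0.54, and the other 6 genes ran from -0.29 (Jak2) to 0.59 (Stat6).

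For 8 of the 9 genes, all but Stat4 (-0.03 with and -0.17 without it), the difference was smaller in size without WT library 1. Without that library, so against WT library 2 alone and with its spread taken from the other groups, the 9 log2 fold changes ran from -0.22 (Jak2) to 0.24 (Stat3), and the median size was 0.17, against 0.466 with WT library 1. Stat5b was then at 0.22 ± 0.12, Jak3 at 0.21 ± 0.23, Stat6 at -0.01 ± 0.18 and Stat5a at -0.02 ± 0.28. Stat3 had 0.24 ± 0.09 (95% interval 0.04 to 0.44, edgeR adjusted p = 0.955), the only one of the 9 with an interval that did not include 0. EdgeR called 0 of 9 and 0.0% of all genes in that fit, with 1 of 9 at an unadjusted p under 0.05. Against WT library 1 alone, 6 of 9 were called higher in GFPhi (Jak1, Jak3, Stat3, Stat5a, Stat5b and Stat6), where 40.1% of all genes were called.

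In GFPLow against WT, which differ in TIM-3, FLAG, FoxP3 and genotype together, edgeR called 0 of 9 genes on all 8 libraries. It had 1 (Jak1) at an unadjusted p under 0.05, while it called 3.3% of all genes. DESeq2 called Jak1 (adjusted p = 0.0115, with 17.2% of all genes called), voom called 0 (0.382% of all genes) and edgeR on the 5 libraries of these groups called 0 (0.187% of all genes). The libraries did not overlap for 3 of 9 genes (Jak1 and Stat3 above, Jak2 below), against 40.3% of all genes (21.1% above and 19.2% below). Jak1 averaged 922.2 ± 24.3 CPM in GFPLow (SD, n = 3) and was at 537.6 and 715.6 CPM in WT, which gave a log2 fold change of 0.56 ± 0.20 (95% interval 0.09 to 1.03, edgeR adjusted p = 0.150). Stat3 averaged 286.0 ± 19.1 CPM in GFPLow and was at 42.8 and 214.3 CPM in WT (1.15 ± 0.55, edgeR adjusted p = 0.229).

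Without WT library 1, Jak1 (0.37 ± 0.06, edgeR adjusted p = 0.0157) and Stat3 (0.42 ± 0.09, edgeR adjusted p = 0.0335) were called higher in GFPLow, in a fit that called 5.88% of all genes. DESeq2 without WT library 1 called the same 2 genes, with 11.9% of all genes, as did voom, with 6.9%. All these fits set GFPLow against WT library 2 alone, the library with both Xist and Ddx3y, so the tools do not replicate each other. In the edgeR fit the other 7 genes ran from -0.54 (Stat5a, 95% interval -1.18 to 0.10) to 0.16 (Stat6). Against WT library 1 alone, 6 of 9 were called higher in GFPLow (Jak1, Jak3, Stat3, Stat4, Stat5b and Stat6), where 43.9% of all genes were called. The comparisons of GFPhi and of GFPLow with WT share both WT libraries, and those with GFPLow share its 3 libraries, so their values are not independent of each other.

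For 5 of the 9 genes the WT libraries differed from each other by more than any of the 9 differed between GFPhi and GFPLow. Jak3 in WT library 1 had 0.0534 times its level in WT library 2, Stat3 0.2 times, Stat6 0.317 times, Stat5b 0.363 times and Stat5a 0.426 times. Jak1 (0.751 times), Stat4 (0.81 times), Stat2 (0.856 times) and Jak2 (1.1 times) were closer to WT library 2. The 5 genes with the largest gap have 52.5% to 61.1% G+C in their longest coding transcript, Jak3 the most, and the other 4 have 44.3% to 51.9%. Among 12705 coding genes placed in 5 bins of equal size by G+C, the median log2 difference, WT library 1 minus WT library 2, was 0.15 in the lowest bin and then -0.12, -0.41, -0.65 and -0.87. Stat3, Stat5b and Stat6 lie below the median of their bin by more than 0.8, with -2.32, -1.46 and -1.66 against -0.65, and Jak3 has -4.21 against -0.87. GFPhi minus WT library 2 had bin medians of -0.03 to 0.08. The part of G+C content in the low values of WT library 1 was not tested.

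**Figure D3:**
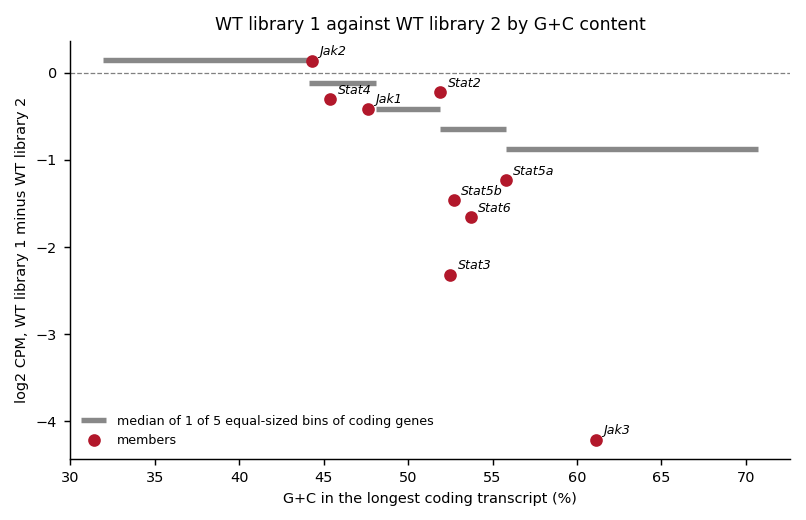
Log2 CPM difference, WT library 1 minus WT library 2 (vertical axis), against percent G+C of the longest coding transcript (horizontal axis), with points for the 9 genes and grey bars for the medians of 5 equal-sized bins of coding genes. The bin medians run from 0.15 to -0.87, and Jak3 (-4.21), Stat3 (-2.32), Stat6 (-1.66) and Stat5b (-1.46) lie below the median of their bin.

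Ratios taken within a library do not depend on the scaling between libraries. Per kilobase of merged exons, Jak3 over Jak1 was 0.186, 0.146 and 0.127 in GFPhi, 0.115, 0.127 and 0.0923 in GFPLow, and 0.00978 and 0.138 in WT. The log2 difference of GFPhi against GFPLow was 0.45, with all 3 GFPhi libraries above all 3 GFPLow libraries (exact two-sided permutation p = 0.1, the smallest that 3 against 3 allow). That separation rests on a near tie, with log2 ratios of -2.975 in GFPhi library 3 and -2.978 in GFPLow library 2. Stat5a over Stat5b was 0.376, 0.331 and 0.307 in GFPhi, 0.27, 0.28 and 0.198 in GFPLow, and 0.472 and 0.403 in WT. WT was highest, GFPhi intermediate and GFPLow lowest, with no overlap between any pair of groups. The log2 differences were 0.45 for GFPhi against GFPLow (exact p = 0.1), -0.37 for GFPhi against WT (exact p = 0.2) and -0.82 for GFPLow against WT (exact p = 0.1, the smallest that 3 against 2 allow). WT library 1 had the highest ratio of Stat5a over Stat5b, with both genes low there. Stat4 over Stat6 was 0.715, 0.94 and 0.701 in GFPhi, 0.659, 0.87 and 0.85 in GFPLow, and 2.21 and 0.866 in WT, with GFPhi and GFPLow overlapping (exact permutation p = 1.0). Over the 9 tests of 3 ratios the smallest adjusted p of these exact tests was 0.257, so no ratio passed.

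Per kilobase of merged exons, Jak1 was the most abundant member in every library, with 103 CPM per kb as the mean in GFPhi, 128 in GFPLow, and 74.4 and 99.0 in WT. In GFPhi it was followed by Stat6 (40.4 CPM per kb), Stat4 (31.3), Stat3 (26.6), Stat5b (25.3), Jak3 (15.7), Stat2 (11.2), Jak2 (11.0) and Stat5a (8.59). Stat3 and Stat5b overlapped there, as did each neighbouring pair from Jak3 down to Stat5a. In GFPLow the same 6 genes led in the same order with no overlap between neighbours down to Jak3 (14.2 CPM per kb), and Stat5a was lowest, at 5.97. In WT, Stat4 (31.9 CPM per kb) stood second and Stat6 (26.8) behind it, with overlap between neighbours from Stat4 down to Jak2. Jak1 made up 76.7% to 81.9% of the kinase total per kb in GFPhi, 81.8% to 84.5% in GFPLow, and 83.4% and 79.0% in WT. Dividing by the longest coding transcript instead, Stat6, Stat3 and Stat4 overlapped in GFPhi (47.1, 42.0 and 40.6 CPM per kb) and Jak2 was lowest (11.0), so the order below Jak1 depends on the length used.

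**Figure D4:**
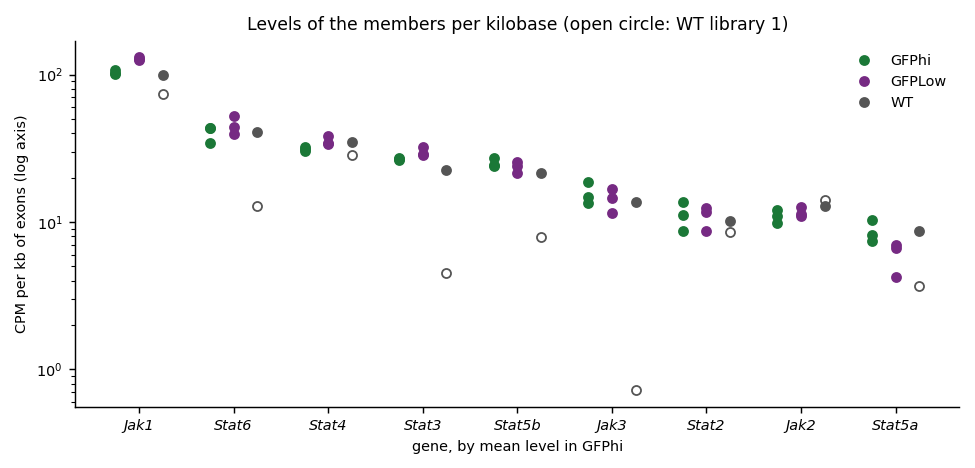
CPM per kilobase of merged exons (vertical log axis) of the 9 genes in each library, ordered by their mean in GFPhi, with colours for GFPhi, GFPLow and WT and an open circle for WT library 1. Jak1 leads in every library, with a GFPhi mean of 103 CPM per kb, and Stat5a has the lowest GFPhi mean, 8.59.

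Receptor chains of IL-2 and IL-7, which act through Jak1 and Jak3, were among the genes that passed the test. Of 9 receptor genes of the common gamma chain family, 2 rose and 1 fell in GFPhi against GFPLow, with a median log2 fold change of 0.03 against 0.01 for all genes. Il2ra, the high-affinity chain of the IL-2 receptor, was at 549.5, 572.5 and 610.6 CPM in GFPhi, against 7.27, 11.6 and 16.3 CPM in GFPLow (log2 fold change 5.63 ± 0.35, edgeR adjusted p = 0.00103). Il2rb, its signalling beta chain, which binds Jak1, was at 592.7, 488.7 and 446.7 CPM in GFPhi, against 121.1, 122.2 and 143.0 CPM in GFPLow (1.98 ± 0.38, edgeR adjusted p = 0.0379). Il7r, the IL-7 receptor alpha chain, was at 282.0, 244.5 and 368.7 CPM in GFPhi, against 668.9, 621.8 and 717.5 CPM in GFPLow (-1.17 ± 0.20, edgeR adjusted p = 0.0247). None of these 3 overlapped between the groups. Without WT library 1 the list counts were 3 higher and 2 lower, Il15ra and Il4ra being added. The call of Il2rb was lost when any 1 of the 6 GFPhi and GFPLow libraries was left out (edgeR adjusted p from 0.105 to 0.181), and that of Il7r when any of them but GFPhi library 3 was (edgeR adjusted p from 0.094 to 0.153). Il2rg, the common gamma chain itself, which binds Jak3, was at 892.1, 1031 and 1102 CPM in GFPhi and 1044, 1068 and 1136 CPM in GFPLow, against 795.2 and 967.0 CPM in WT.

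Il7r rose in GFPLow against WT (1.47 ± 0.23, edgeR adjusted p = 0.0151) and Il2ra fell (-5.66 ± 0.36, edgeR adjusted p = 0.00122), 1 higher and 1 lower of 9. The Il7r call was lost without GFPLow library 1, 2 or 3 (edgeR adjusted p of 0.0716, 0.0596 and 0.0711), with only the 5 libraries compared (edgeR adjusted p = 0.116) and by voom (limma adjusted p = 0.304). EdgeR called 0 of 9 in GFPhi against WT, with 0 at an unadjusted p under 0.05, and DESeq2 and voom called 0.

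Of the receptors of the gp130, IL-12 and IL-10 families, which use STAT3 and STAT4, 9 of 11 listed genes were tested and edgeR called 0 in GFPhi against GFPLow, with 4 at an unadjusted p under 0.05, 4 by DESeq2 and 5 by voom. Il27ra, a receptor chain for IL-27, averaged 237.9 ± 6.77 CPM in GFPhi and 271.2 ± 6.92 CPM in GFPLow (SD, n = 3 each), and was at 87.7 and 208.5 CPM in WT. Il6st, which encodes gp130, averaged 144.9 ± 10.0 CPM in GFPhi and 140.0 ± 13.6 CPM in GFPLow, and was at 81.7 and 156.5 CPM in WT. EdgeR without WT library 1 called 3 higher and 1 lower in GFPhi against GFPLow (Il10ra, Il10rb, Il12rb1 and Il6ra). Against WT, edgeR called 0 of 9 for GFPhi (2 at an unadjusted p under 0.05, 0 by DESeq2 and 0 by voom) and 0 for GFPLow (3 at an unadjusted p under 0.05, 3 by DESeq2 and 0 by voom).

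Of the interferon receptors, which use Jak1 and lie upstream of Stat2, 4 of 5 were tested, and edgeR, DESeq2 and voom called 0 in all 3 comparisons, with 0 at an unadjusted p under 0.05. Ifngr1 averaged 288.1 ± 69.3 CPM in GFPhi and 225.3 ± 32.7 CPM in GFPLow (SD, n = 3 each) and was at 163.1 and 224.3 CPM in WT. Ifnar1 averaged 107.9 ± 6.37 CPM in GFPhi and 90.2 ± 5.71 CPM in GFPLow and was at 46.8 and 122.0 CPM in WT.

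Of the inhibitors of JAK signalling, 8 genes of the SOCS family, Cish included, were tested, and 2 rose in GFPhi against GFPLow. Cish, which STAT5 induces and which restrains IL-2 receptor signalling, was at 245.7, 216.5 and 237.4 CPM in GFPhi, against 28.5, 26.6 and 43.3 CPM in GFPLow (2.83 ± 0.37, edgeR adjusted p = 0.00931). Socs2, another inhibitor that STAT5 induces, was at 79.0, 99.2 and 92.7 CPM in GFPhi, against 4.48, 4.90 and 14.5 CPM in GFPLow (3.50 ± 0.49, edgeR adjusted p = 0.011). Every GFPhi library exceeded every GFPLow library for both. The edgeR adjusted p of Cish was 0.0527, 0.0583 and 0.0587 without GFPhi library 1, GFPLow library 1 or GFPLow library 2, and that of Socs2 was 0.0535, 0.0541, 0.0516 and 0.0584 without GFPhi library 1 or 2 or GFPLow library 1 or 2. Without WT library 1, 4 of 8 rose, with Socs1 and Socs5 added.

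In GFPLow against WT, 3 of the 8 fell: Socs2 (-3.99 ± 0.52, edgeR adjusted p = 0.00737), Socs5 (-1.62 ± 0.25, edgeR adjusted p = 0.0129) and Cish (-2.24 ± 0.39, edgeR adjusted p = 0.0225). Left-out libraries other than those of WT ended the calls of Cish (edgeR adjusted p from 0.0545 to 0.109, any 1 of 6) and of Socs5 (0.0596 and 0.0661, without GFPLow library 2 or 3). With only the 5 libraries compared, Socs2 (edgeR adjusted p = 0.0832), Socs5 (0.106) and Cish (0.137) were not called, and voom did not call Socs5 (limma adjusted p = 0.294) or Cish (0.079). No gene of the list was called by edgeR in GFPhi against WT, with 2 at an unadjusted p under 0.05 and 0 by DESeq2 and by voom. Cish had 85.9 CPM in WT library 1 and 223.3 CPM in WT library 2, and Socs1, which binds JAKs directly, averaged 170.2 ± 35.4 CPM in GFPhi (SD, n = 3) and was at 30.0 and 153.4 CPM in WT. For both genes WT library 2 lay within the range of GFPhi and WT library 1 far below it.

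Of 12 PIAS genes, phosphatases and other brakes, edgeR called 0 in each comparison. The counts at an unadjusted p under 0.05 were 0 in GFPhi against GFPLow, 1 in GFPhi against WT and 4 in GFPLow against WT, those of DESeq2 0, 0 and 3, and those of voom 2, 0 and 0. Ptprc, the phosphatase CD45, averaged 2611 ± 84.7 CPM in GFPhi and 3011 ± 175 CPM in GFPLow (SD, n = 3 each) and was at 2558 and 2554 CPM in WT. Ptprc was called lower in GFPhi against GFPLow without WT library 1, with Pias1, an inhibitor of STATs. Ptpn6, the phosphatase SHP-1, averaged 353.4 ± 40.4 CPM in GFPhi and 435.3 ± 22.9 CPM in GFPLow and was at 122.6 and 334.5 CPM in WT.

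Of 15 genes listed as STAT5 targets, 5 rose and 1 fell in GFPhi against GFPLow, with a median log2 fold change of 0.77 against 0.01 for all genes. Besides Il2ra, Cish and Socs2, which other lists share, Lta and Foxp3 rose. Lta, the cytokine lymphotoxin alpha, was at 210.2, 211.5 and 179.4 CPM in GFPhi, against 44.1, 48.1 and 42.1 CPM in GFPLow (2.16 ± 0.16, edgeR adjusted p = 0.00138). Foxp3 (4.50 ± 0.39, edgeR adjusted p = 0.00218) was part of the gate, so its direction is no finding. It is counted among the 5 that rose, and the median includes it. Of all genes, 2.26% were called in that fit. Prf1, which encodes perforin of cytotoxic granules and is named after its values were seen, fell (-3.33 ± 0.48, edgeR adjusted p = 0.0124), at 3.21, 2.47 and 1.71 CPM in GFPhi and 22.6, 24.5 and 27.4 CPM in GFPLow. The sum of 6 NK markers moved with it, at 2.82 to 6.79 CPM in GFPhi and 19.8 to 92.4 CPM in GFPLow, and its part in the Prf1 value was not tested. Leaving out WT library 1, 8 rose and 3 fell. Stat5a and Stat5b themselves had differences of 0.52 and 0.09 in the same comparison.

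Set against WT, GFPLow had 1 STAT5 target higher (Prf1, 2.72 ± 0.55, edgeR adjusted p = 0.0386) and 6 fell, led by Il2ra, Lta (-2.31 ± 0.17, edgeR adjusted p = 0.00125), Foxp3 and Socs2. Foxp3, part of the gate, is counted among those 6, and 3.3% of all genes were called in that fit. Prf1 was at 5.87 and 1.72 CPM in WT. Voom called 4 of these 7 genes and not Cish (limma adjusted p = 0.079), Bcl2 (0.287) or Prf1. In the fit of only the 5 libraries compared, Foxp3 (edgeR adjusted p = 0.0641), Socs2 (0.0832), Cish (0.137), Prf1 (0.154) and Bcl2 (0.23) were not called. Bcl2 was not called either without any 1 of the GFPhi or GFPLow libraries (edgeR adjusted p from 0.0955 to 0.178). EdgeR called 0 of 15 in GFPhi against WT, with 3 at an unadjusted p under 0.05 and 0 by DESeq2 and by voom. Ccnd2, a cyclin of the early cell cycle, averaged 942.7 ± 67.8 CPM in GFPhi (SD, n = 3) and was at 699.1 and 987.9 CPM in WT, and Bcl2, a survival gene, averaged 484.5 ± 32.4 CPM in GFPhi and was at 789.1 and 586.2 CPM in WT. Lta averaged 200.4 ± 18.2 CPM in GFPhi and was at 213.9 and 230.8 CPM in WT, so both WT libraries lay far above GFPLow.

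Of 10 tested genes in the STAT3 target list, 1 rose in GFPhi against GFPLow, Ahr, the aryl hydrocarbon receptor, at 21.8, 17.8 and 18.4 CPM in GFPhi and 7.55, 7.88 and 5.72 CPM in GFPLow (1.46 ± 0.23, edgeR adjusted p = 0.0156). Its call was lost when any 1 of the 6 libraries compared was left out (edgeR adjusted p from 0.0672 to 0.0955). Of the same list, 2 fell in GFPLow against WT, Ahr (-1.41 ± 0.24, edgeR adjusted p = 0.0219) and Batf, an AP-1 factor (-1.15 ± 0.23, edgeR adjusted p = 0.0397). Neither call held without any 1 of the GFPhi or GFPLow libraries (edgeR adjusted p from 0.055 to 0.09 for Ahr and from 0.0782 to 0.157 for Batf), with only the 5 libraries compared (edgeR adjusted p of 0.151 and 0.199) or by voom (limma adjusted p of 0.492 and 0.435). No gene of the list was called by edgeR in GFPhi against WT, with 1 at an unadjusted p under 0.05 and 0 by DESeq2 and by voom.

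Of 9 tested genes in the STAT4 target list, 1 fell in GFPhi against GFPLow, with a median log2 fold change of -0.69. Tbx21, which encodes the T helper 1 factor T-bet, was at 6.07, 7.57 and 4.48 CPM in GFPhi, against 17.5, 15.3 and 18.1 CPM in GFPLow (-1.49 ± 0.27, edgeR adjusted p = 0.0295). Its call was lost when any 1 of the 6 libraries compared was left out (edgeR adjusted p from 0.074 to 0.147). The sum of NK markers, given beside Prf1 above, moved the same way, and its part in the Tbx21 value was not tested. In GFPLow against WT, 3 rose, Tbx21 (3.33 ± 0.34, edgeR adjusted p = 0.00379), the chemokine receptor gene Cxcr3 (1.28 ± 0.20, edgeR adjusted p = 0.016) and Il18r1, a chain of the IL-18 receptor (0.98 ± 0.20, edgeR adjusted p = 0.0381). Cxcr3 was not called without GFPLow library 2 or 3 (edgeR adjusted p of 0.0753 and 0.0714), and Il18r1 was not called without any 1 of the 6 GFPhi and GFPLow libraries (edgeR adjusted p from 0.0757 to 0.149). Voom called none of the 3 (limma adjusted p of 0.478 for Tbx21, 0.487 for Cxcr3 and 0.669 for Il18r1), and the fit of only the 5 libraries compared did not call Cxcr3 (edgeR adjusted p = 0.131) or Il18r1 (edgeR adjusted p = 0.189). No gene of the list was called by edgeR in GFPhi against WT, with 3 at an unadjusted p under 0.05, 1 by DESeq2 and 0 by voom.

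Of 7 tested genes in the STAT6 target list, 1 rose in GFPhi against GFPLow, Ccr8, a chemokine receptor of Treg and T helper 2 cells, at 83.2, 70.1 and 58.4 CPM in GFPhi and 8.56, 5.20 and 11.1 CPM in GFPLow (3.09 ± 0.37, edgeR adjusted p = 0.00617). It also fell in GFPLow against WT (-2.62 ± 0.38, edgeR adjusted p = 0.0115), where the call was lost without GFPLow library 1 (edgeR adjusted p = 0.0618), with only the 5 libraries compared (edgeR adjusted p = 0.0993), with the replicate block (edgeR adjusted p = 0.0836) and by voom (limma adjusted p = 0.105). Ccr8 had 34.8 CPM in WT library 1 and 67.2 CPM in WT library 2. No gene of the list was called by edgeR in GFPhi against WT, with 2 at an unadjusted p under 0.05 and 0 by DESeq2 and by voom. The target lists hold genes that other factors also control, so their counts do not measure STAT activity.

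**Figure D5:**
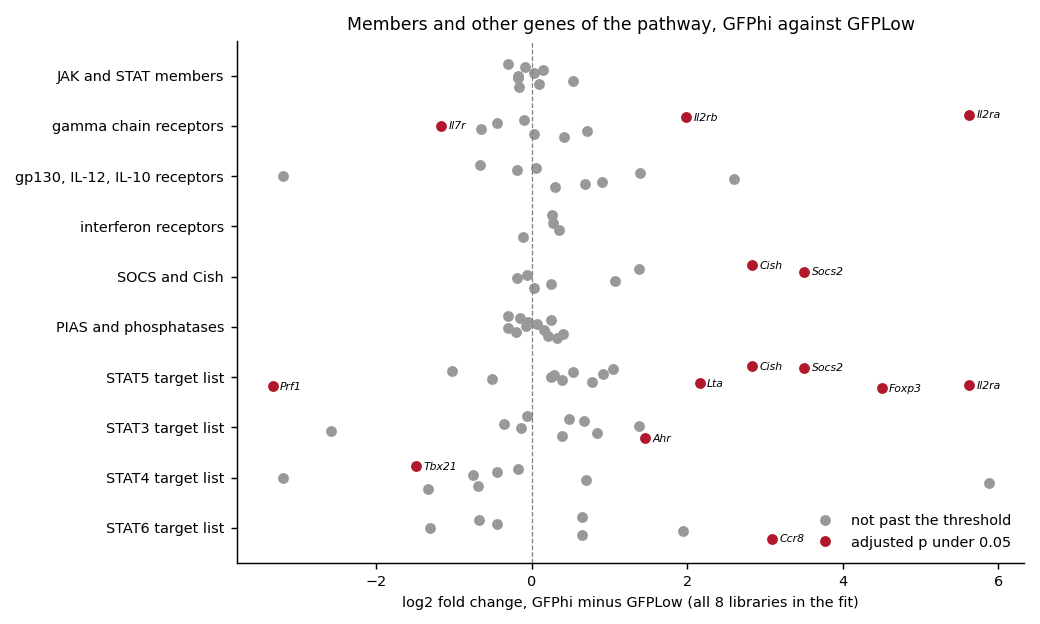
Log2 fold changes (horizontal axis, GFPhi minus GFPLow, 8 libraries in the fit) of the JAK and STAT genes and of the genes of 9 pathway lists, 1 row for each list, with red points for genes past the threshold. The 9 members lie between -0.31 and 0.52, and Il2ra (5.63), Foxp3 (4.50), Socs2 (3.50) and Ccr8 (3.09) are the called genes farthest to the right.

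Across the 8 libraries, some genes followed the patterns of Jak1, Stat5a and Stat4 closely, the members with the smallest p in GFPhi against GFPLow. Likeness was the root mean square difference of log2 CPM centred for each gene, over 8052 genes. Nearest to Jak1 were Atp6v1h, a subunit of the vacuolar proton pump (0.0535), Mtfr1l (0.0592) and the tubulin gene Tuba4a (0.0592), where Jak1 itself had a range of 0.82 on the log2 scale. Atp6v1h was at 91.1, 100.4 and 107.8 CPM in GFPhi, at 119.1, 119.5 and 115.4 CPM in GFPLow, with 70.5 and 95.3 CPM in WT, the same order of group means as Jak1. Nearest to Stat5a were Arl15 (0.126), Hyal2 (0.163) and the formin gene Fmnl3 (0.168), and nearest to Stat4 were Saal1 (0.0601), Slc38a9 (0.0633) and Akr1b3 (0.0723).

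The marker lists give summed RNA levels of genes chosen for a cell type, and a sum does not show that such cells were present. Some sums rest on part of a list. Of 6 B cell markers, 3 were at 0 in every GFPhi library, 1 or 2 in GFPLow libraries, and 3 and 2 in WT. Of 6 platelet markers, 3 or 4 were at 0 in GFPhi libraries, 2 or 3 in GFPLow libraries, and 0 and 1 in WT. In bulk samples fewer cells of a type and less RNA per cell cannot be told apart. The sum of 7 CD4 T cell markers ran from 5822 to 6156 CPM in GFPhi and from 6503 to 6804 CPM in GFPLow, and was 10070 and 6202 CPM in WT libraries 1 and 2. The sum of 6 Treg markers ran from 3181 to 3307 CPM in GFPhi, from 353 to 445.4 CPM in GFPLow, and was 5941 and 3688 CPM in WT. Both sums were larger in WT library 1 than in WT library 2, while single markers could be lower there, as Foxp3 was (41.7 and 63.2 CPM in WT libraries 1 and 2). Sums of B cell markers were 46.4 to 54.0 CPM in GFPhi, 8.35 to 16.9 CPM in GFPLow, and 75.8 and 56.1 CPM in WT. Plasma cell markers summed to 171.2 to 203.6 CPM in GFPhi, 122.6 to 144.7 CPM in GFPLow, and 82.6 and 195.2 CPM in WT. Dendritic cell markers (3.12 CPM or less, Siglech at 0 in every library), CD8 markers (16.2 to 37.7 CPM) and erythroid markers (0.785 to 16.9 CPM) were low everywhere. Platelet markers summed to 24.9 to 35.1 CPM in GFPhi, 69.3 to 90.4 CPM in GFPLow, and 58.4 and 30.0 CPM in WT. Myeloid markers summed to 9.09 and 31.3 CPM and NK markers to 9.31 and 1.85 CPM in WT.

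The 3 JAK genes together held 870.3 to 892.2 CPM in GFPhi, 1019 to 1101 CPM in GFPLow, and 612.2 and 852.8 CPM in WT. The 6 STAT genes together held 793.9 to 843.0 CPM in GFPhi, 800.7 to 915.2 CPM in GFPLow, and 331.2 and 771.2 CPM in WT. The kinase sum of GFPhi lay below that of GFPLow without overlap, as Jak1 alone does, while the STAT sums of GFPhi and GFPLow overlapped.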

How the data were processed

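The authors deposited unnormalized counts, as whole numbers for each Ensembl gene and each of the 8 libraries, and every value column (0 left over) was matched to a library by its title. The submitters' processing notes name HISAT2 2.1.0, SAMtools 1.9, HTSeq 0.11.2, edgeR, R 4.0 and genome build GRCm38. The strand setting and annotation were not given in the sources used here, so reads of overlapping genes cannot be told apart. Per the labels' protocols, cells were sorted into lysis buffer and amplified by SMART-Seq HT before Nextera XT library preparation, without molecular identifiers.

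Symbols (54808 of 54837 identifiers), coordinates, merged exons and transcripts came from GENCODE vM21 on GRCm38, and promoter windows from RefSeq. Genes were filtered by edgeR's filterByExpr (18851 kept), and 1 edgeR 4.0.16 model with a mean per group (TMM scaling, robust glmQLFit, 5 residual degrees of freedom) was fitted to all libraries. Quasi-likelihood tests were two-sided, with Benjamini-Hochberg adjustment over all genes and a threshold of 0.05. The fit was tested on simulated data. CPM are TMM-scaled. DESeq2 1.42.0 and limma 3.58.1 (voom with sample quality weights) in R 4.3.3 gave alternatives, as did other scaling, filters, no robust estimation, a block by replicate number, only the libraries compared, and each library left out. Division by the longest coding transcript was added after seeing the data. Likeness used a prior count of 2 and genes with a mean log2 CPM above 3. Nothing in the labels says which libraries came from separate animals. Xist and Ddx3y differ within GFPhi and within GFPLow, so each holds more than 1 animal, but how much of the spread behind the p-values lies between animals is not known.

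The members and the 9 pathway and 10 marker lists were chosen with earlier results of these data known. Of each pathway list, up to 4 genes past the threshold with the smallest adjusted p in a comparison were named, or else the 2 most abundant.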

Additional observations from a re-analysis of the deposited data

How the results depend on the processing

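The counts of called members were the same as on all 8 libraries (0 in each comparison) under median-of-ratios and upper quartile scaling, with all genes kept or only those of 5 CPM in 2 libraries, without robust estimation and with the replicate number as a block on all libraries. In GFPhi against GFPLow, voom called 1, a fit of only those 6 libraries 1, and the replicate block on those 6 libraries 2 (Jak1 lower, adjusted p = 0.0182, and Stat5a higher, adjusted p = 0.0431, with 10.3% of all genes called). Leaving out 1 library gave 0 to 1 there. In the comparisons with WT, the counts depended on which WT library was left out, as given above with the share of all genes called. The most members were called against WT library 1 alone, where the most genes of all were also called. DESeq2 on all 8 libraries called 1 member in GFPLow against WT. The replicate numbers were not treated as pairs, since not every same-numbered GFPhi and GFPLow pair correlated above 0.1 in its deviations (0.0671, 0.0662 and 0.149, others -0.112 to 0.0517). Each library correlated best with its own number, which is a weak hint of pairing. The titles give the numbers as M1, M2 and M3 in both groups, without saying what they mark. Xist and Ddx3y matched by number as well. Library 3 of both groups held Xist without Ddx3y, and libraries 1 and 2 of both held Ddx3y with Xist at 0.264 CPM or less. Whether an equal number marks 1 mouse cannot be told from these values. The block on all libraries called 182 genes of all, against 426 without it, in GFPhi against GFPLow.

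Over all genes, DESeq2, voom and the fit of only the libraries compared called 1375, 2271 and 2105 in GFPhi against GFPLow, 320, 0 and 0 in GFPhi against WT (0 on all libraries by edgeR) and 3243, 72 and 33 in GFPLow against WT (623 by edgeR). With 1 library left out the counts ran from 105 to 1984, from 0 to 8234 and from 213 to 9002.

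Some member differences changed sign, and the cause was not tested. In GFPhi against GFPLow they were Jak3 without GFPhi library 1 (-0.005) and Stat2 without GFPhi library 3 (-0.138) or GFPLow library 1 (-0.112). In GFPhi against WT they were Stat4 with no filter (0.008), with the block on all libraries (0.012) and without WT library 2 (0.16), and, without WT library 1 by edgeR, DESeq2 and voom, Stat5a (-0.021, -0.022 and -0.048) and Stat6 (-0.007, -0.008 and -0.04). In GFPLow against WT, Stat5a had 0.136 with the block on all libraries, 0.135 without GFPLow library 3 and 0.709 without WT library 2. Over all left-out libraries, these differences ran from -0.005 to 0.268 (Jak3) and from -0.138 to 0.18 (Stat2) in GFPhi against GFPLow, from -0.17 to 0.16 (Stat4), -0.021 to 1.236 (Stat5a) and -0.007 to 1.675 (Stat6) in GFPhi against WT, and from -0.54 to 0.709 (Stat5a) in GFPLow against WT. Gene length is the same in every library, so leaving it out of the ratios cannot change their log2 differences and tests nothing. Leaving out 1 library, Jak3 over Jak1 in GFPLow against WT ran from -0.318 (without WT library 1) to 3.497, and Stat4 over Stat6 in GFPhi against GFPLow from -0.153 to 0.058, with 0.044, 0.058, 0.055 and 0.038 above 0. Stat5a over Stat5b in GFPhi against GFPLow ran from 0.293 to 0.542 and Jak3 over Jak1 from 0.303 to 0.575. Calls of other named genes were lost in 34 of their alternatives in GFPhi against GFPLow and in 74 in GFPLow against WT. All members had 3.89 CPM or more in every library, and the part of depth in the number of calls was not tested.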

Other observations

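Stat2 varied more by library number than by group, a pattern noticed after its values were seen. It was highest in library 3 and lowest in library 1 in both GFPhi (51.9, 66.1 and 81.0 CPM in libraries 1 to 3) and GFPLow (51.5, 69.2 and 74.2 CPM). Usp18, an interferon-induced brake on the type I interferon receptor, was also highest in library 3 of both groups, at 126.1, 130.5 and 228.4 CPM in GFPhi and 121.4, 97.4 and 199.4 CPM in GFPLow, and was at 132.5 and 146.7 CPM in WT. The order of libraries 1 and 2 was not the same for Usp18 in both groups. GFPhi library 3 and GFPLow library 3 were also the libraries of these groups with Xist (236.7 and 183.8 CPM) and no Ddx3y. With 3 libraries in a group no test of this pattern was run.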
